A study of Mus musculus with 12 samples.

Results

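The genes that encode the proteasome, its regulators and its assembly factors were followed through a list of accessible chromatin regions from mouse blood cells. Members were the rows whose gene name began with Psm, then a letter from a to g and a digit. The name selected 146 of 84243 peaks (0.173%), which belonged to 45 genes. The mouse annotation (NCBI RefSeq, GRCm38.p6, the assembly that mm10 denotes) holds 51 protein-coding genes of that name form, and 6 of them had no row of their own, namely Psmb11, Psmc5, Psmd13, Psme2, Psme2b and Psme3ip1. Of the 51 genes, 3 share the name form but were not classed as a subunit, regulator or assembly factor. Psmc3ip encodes a factor of meiotic recombination, Psme2b is a copy that resembles Psme2, and Psme3ip1 encodes a protein that binds the PA28gamma activator and was listed under its older name Fam192a.

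Chromatin accessibility had been mapped by ATAC-seq, which tags open DNA with a transposase, in 12 samples from wild-type C57BL/6 mice 8 to 12 weeks old. There were 2 samples each of hematopoietic stem cells (HSC), megakaryocyte progenitors (MkP), erythroid progenitors (EP), granulocyte/macrophage cells (GM) and B cells from bone marrow, and of T cells from thymus, all untreated and sorted by surface antigens. The peaks of all 6 cell types had been merged into 1 list of 499-bp peaks that gives a position and an annotation for each peak, but no reads, no sample and no cell type. Depth is therefore unknown, no value below has an error between replicates, no comparison of cell types could be made, the sorted populations could not be checked against their marker genes, and every share is set beside the same share over all genes without a test.

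The proteasome degrades proteins tagged with ubiquitin. Its core is a barrel of stacked rings of alpha and beta subunits, with the proteolytic sites on the beta subunits beta1, beta2 and beta5, and a regulatory particle with a base of ATPases and a lid binds, unfolds and de-ubiquitinates the substrates. Cells exposed to interferon-gamma, and many blood cells at rest, replace the catalytic subunits with beta1i, beta2i and beta5i (Psmb9, Psmb10 and Psmb8) and make the activator PA28 (Psme1 and Psme2), which together form the immunoproteasome and supply peptides for MHC class I. Transcription of the constitutive subunits is known to be raised together when the proteasome is blocked, through NFE2L1 acting at antioxidant response elements (ARE).

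Sequences of the promoters came from RefSeq (GRCm38.p6) and are given 5′ to 3′ on the strand of the gene, from 150 bases before the transcription start site (TSS) to 29 after it. The beta5 gene and 4 of the 5 immunoproteasome genes are shown first, because the comparison of constitutive and inducible subunits turns on them. Psme2 is not shown. Capitals mark letters that match TGACNNNGC (ARE), CCAAT (the box bound by NF-Y), CCGGAAG (the core read by ETS factors), the interferon-stimulated response element (ISRE, GAAA and a second GAAA with any 2 bases between them) or TTCNNNGAA (the gamma-activated site, GAS), on either strand.
Psmb5, chr14:54617966-54618145, minus strand: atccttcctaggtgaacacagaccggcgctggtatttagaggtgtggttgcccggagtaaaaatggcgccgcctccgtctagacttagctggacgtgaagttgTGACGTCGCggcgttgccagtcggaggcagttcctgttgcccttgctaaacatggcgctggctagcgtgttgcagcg
Psmb8, chr17:34198045-34198224, plus strand: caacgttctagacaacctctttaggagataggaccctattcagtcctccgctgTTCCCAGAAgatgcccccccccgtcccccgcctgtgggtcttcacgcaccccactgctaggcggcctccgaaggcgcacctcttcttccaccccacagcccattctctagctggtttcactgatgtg
Psmb9, chr17:34187301-34187480, minus strand: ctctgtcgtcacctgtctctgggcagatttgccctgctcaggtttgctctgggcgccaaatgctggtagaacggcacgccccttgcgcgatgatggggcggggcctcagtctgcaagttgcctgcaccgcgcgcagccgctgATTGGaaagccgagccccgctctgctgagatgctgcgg
Psmb10, chr8:105938363-105938542, minus strand: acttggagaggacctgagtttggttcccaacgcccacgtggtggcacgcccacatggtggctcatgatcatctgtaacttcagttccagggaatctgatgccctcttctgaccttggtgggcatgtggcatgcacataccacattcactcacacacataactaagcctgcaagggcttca
Psme1, chr14:55578344-55578523, plus strand: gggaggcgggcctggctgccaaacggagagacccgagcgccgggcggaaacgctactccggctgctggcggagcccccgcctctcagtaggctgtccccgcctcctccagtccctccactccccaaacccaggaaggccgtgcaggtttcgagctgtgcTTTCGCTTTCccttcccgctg
In Psmb5 the capitals were an ARE match that began 47 bases before the TSS. In Psmb8 they were a GAS match that began 97 bases before it, in Psmb9 a CCAAT match on the opposite strand 8 bases before it, and in Psme1 an ISRE match on the opposite strand 9 bases after it. The Psmb10 stretch held none of these letters.

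Promoter accessibility was nearly complete across the family. A promoter peak was defined as one whose centre lay within 500 bp of a TSS. By the gene name a peak carried, 41 of the 51 genes (80.4%) had a promoter peak, always a single one, against 54.8% of 21000 protein-coding genes. When the distance was instead measured to every curated RefSeq TSS, whatever name the peak carried, 47 of 51 genes (92.2%) had one, against 60.3% of all genes. The 4 genes without one were Psma8, Psmb11, Psme2 and Psme2b. By RefSeq TSS, a peak centre lay within 100 bp of the TSS in 35 genes (68.6%), against 38.2% of all genes. Among genes with a promoter peak by name the median distance was 44 bp for the 41 members and 60 bp for all 11518 genes, and 20 member peaks were centred upstream of the TSS, 20 downstream and 1, at Psma7 (alpha4), on the TSS itself.

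**Figure D1:**
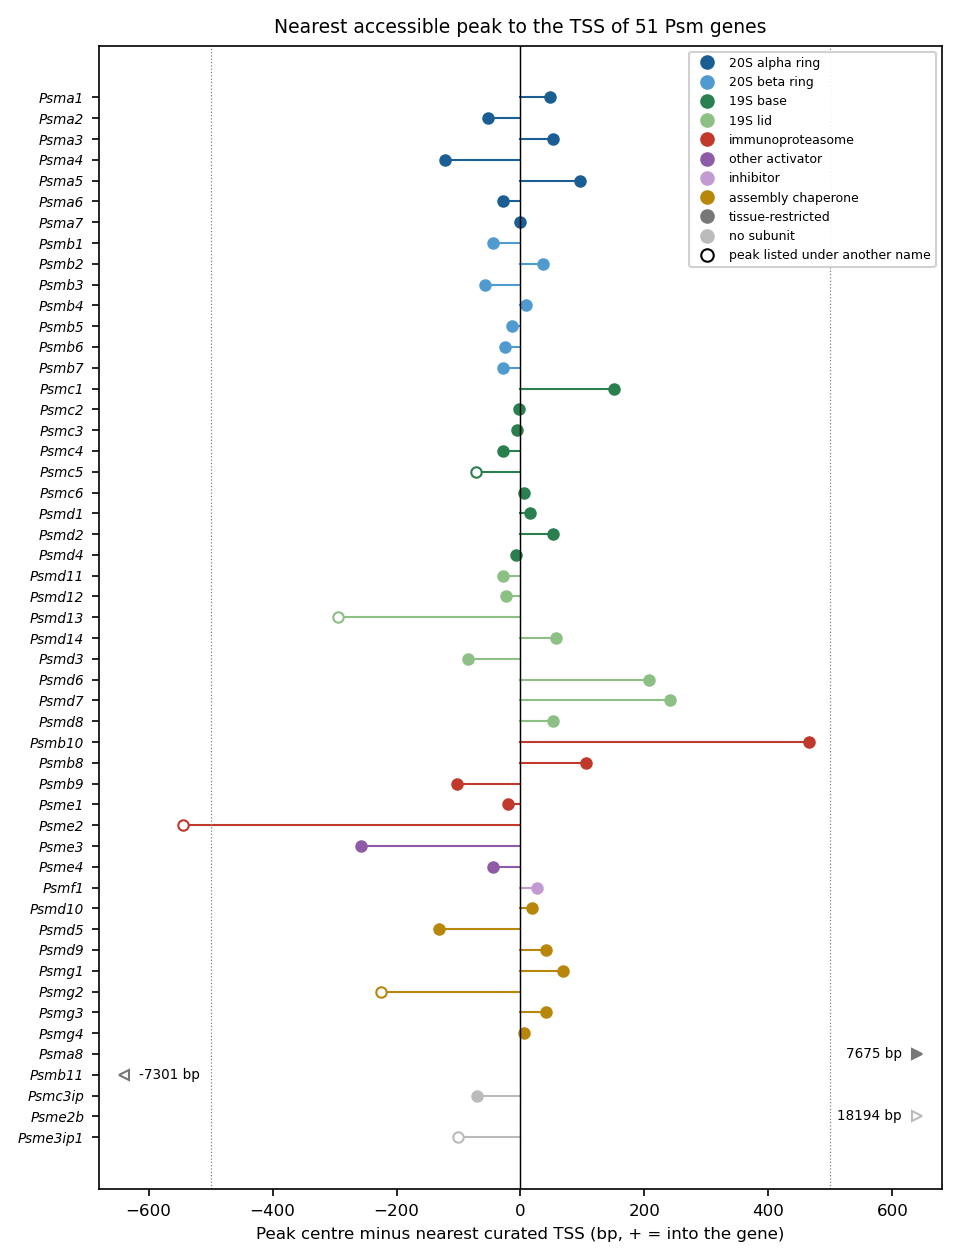
Distance in bp from the nearest curated TSS to the centre of the nearest accessible peak for each of the 51 genes, coloured by role, with open symbols where the peak is listed under another gene name, arrows for genes beyond the axis and dotted lines at 500 bp. Points cluster at the TSS for the core and base genes, while Psmb10 (466 bp) lies just inside the limit and Psme2 (-544 bp) just outside it.

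The 20S core was covered in full. All 7 constitutive alpha-ring genes and all 7 constitutive beta-ring genes had a promoter peak by both measures, with centres between -122 and 96 bp from the TSS in the alpha ring and between -57 and 37 bp in the beta ring (negative values are upstream). The regulatory particle was covered in full by RefSeq TSS only. All 9 genes of the base and all 8 of the lid then had a promoter peak, against 6 and 7 by name. Together the 31 constitutive structural genes of the core, base and lid had promoter peaks in 31 cases by RefSeq TSS and in 27 by name (87.1%).

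The base genes missing by name were Psmc1, Psmc2 and Psmc5, which encode the ATPases Rpt2, Rpt1 and Rpt6, and the lid gene was Psmd13, which encodes Rpn9. For Psmc1 the difference was the annotated start: its peak at chr12:100110104-100110602 was listed as 1978 bp upstream and intergenic, but was centred 151 bp downstream of the curated TSS. Psmc2 has more than 1 curated TSS, and its only peak (chr5:21786496-21786994), listed 1462 bp downstream and in an exon, was centred 2 bp upstream of one of them. The peaks nearest to Psmc5 and Psmd13 carried the names of divergent neighbours. At Psmc5 a peak named Ftsj3 (chr11:106255864-106256362) was centred 72 bp upstream of the Psmc5 TSS, and the TSSs of these genes were 101 bp apart. At Psmd13 a peak named Sirt3 (chr7:140881851-140882349) was centred 294 bp upstream and did not reach the TSS, with 85 bp between the starts. The assembly chaperone gene Psmg2 had the same arrangement, with a peak named Cep76 centred 225 bp upstream of its TSS, at a gap of 232 bp.

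Leaving out the renamed Psme3ip1, 5 of the 47 genes with a promoter peak by RefSeq TSS (10.6%) had none by name, against 9.30% of all such genes, a share close to the background. A divergent protein-coding TSS within 1000 bp upstream was present at 10 of 51 genes (19.6%), against 8.80% of all genes. Besides those above they included Psma2 with Mrpl32 (205 bp), Psma7 with Ss18l1 (19 bp), Psmd10 with Atg4a (196 bp) and Psmb9 with Tap1 (226 bp).

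Most immunoproteasome genes had a promoter peak, and in all of these but Psme1 it was centred farther from the start than in most constitutive genes. Of the 5 genes, 4 (80.0%) had a promoter peak by either measure, against 80.4% of all 51 genes by name and 92.2% by RefSeq TSS, and only Psme1 (20%) had a centre within 100 bp of the TSS. Among the 31 constitutive structural genes, 26 (83.9%) had one, and among all genes 38.2%. Psmb9 and Psmb8 lay just beyond that limit, with centres 102 and 106 bp from the TSS. With 5 genes in the smaller group and no replicate values, this is a description of these loci. The catalytic pairs gave the closest comparison. Psmb5 (beta5, chr14:54617760-54618258), Psmb6 (beta1, chr11:70525083-70525581) and Psmb7 (beta2, chr2:38643686-38644184) had promoter peaks centred 14, 25 and 29 bp upstream of the TSS. The counterparts Psmb8, Psmb9 and Psmb10 had them at 106, -102 and 466 bp, so the ranges of absolute distance in the catalytic pairs did not overlap, and the median was 25 bp for the constitutive and 106 bp for the inducible genes. Over all genes with a promoter peak by RefSeq TSS the median was 64 bp, between these values. Outside the catalytic pairs the order was the reverse for Psme1 of PA28, at 20 bp against 257 bp for its constitutive relative Psme3. It was not the reverse for Psme2, whose nearest peak was centred 544 bp away, outside the promoter limit.

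Psmb8 and Psmb9 lie in the MHC class II region on either side of Tap1, which encodes a subunit of the peptide transporter TAP. Psmb8 (beta5i) carried 3 peaks. Its promoter peak (chr17:34198052-34198550) was annotated to the 5′ UTR, a further peak was centred 540 bp upstream (chr17:34197406-34197904), just outside the promoter limit, and the last lay 1526 bp upstream, in an exon of Tap1. Psmb9 (beta1i) carried 4 peaks. Its promoter peak (chr17:34187183-34187681) sat between the divergent starts of Psmb9 and Tap1, centred 102 bp upstream of the first and 124 bp upstream of the second, and Tap1 had no peak under its own name. The other 3 Psmb9 peaks were intergenic and lay 6635, 12962 and 16047 bp downstream of its TSS. Neither Psmb5 nor Psmb6 had any peak besides its promoter peak, whereas Psmb7 had 5 peaks in all, 1 in its intron and 3 intergenic ones between 2233 and 25445 bp upstream.

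Psmb10 (beta2i) carried 2 peaks, both in its introns, centred 466 bp (chr8:105937677-105938175) and 1329 bp (chr8:105936814-105937312) downstream of the RefSeq TSS, and no peak covered the TSS itself. Its 300-base promoter window held 45.7% G and C, the lowest value of the 43 member windows, and 0.192 of the CpG dinucleotides that its base content would give, a ratio lower only in Psmb11 (0.165) and Psme2b (0.09). The medians were 56.7% and 0.799 over the 25 constitutive structural genes with a promoter in the RefSeq table. Over all 16853 genes with an entry they were 57.0% and 0.607, and over the 10260 of them with a promoter peak 61.3% and 0.771. The 5 immunoproteasome genes had medians of 59.7% and 0.523.

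The genes of PA28 differed from each other. Psme1 (PA28alpha) had a single peak (chr14:55578225-55578723), centred 20 bp upstream of its TSS. Psme2 (PA28beta) had none. The closest one was the promoter peak of the divergent gene Rnf31, a component of the linear ubiquitin ligase complex (chr14:55591396-55591894), centred 544 bp upstream of the nearest Psme2 start and 97 bp upstream of that of Rnf31. The constitutive nuclear relative Psme3 (PA28gamma) had 1 peak (chr11:101315707-101316205), 257 bp upstream, which did not reach its TSS.

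**Figure D2:**
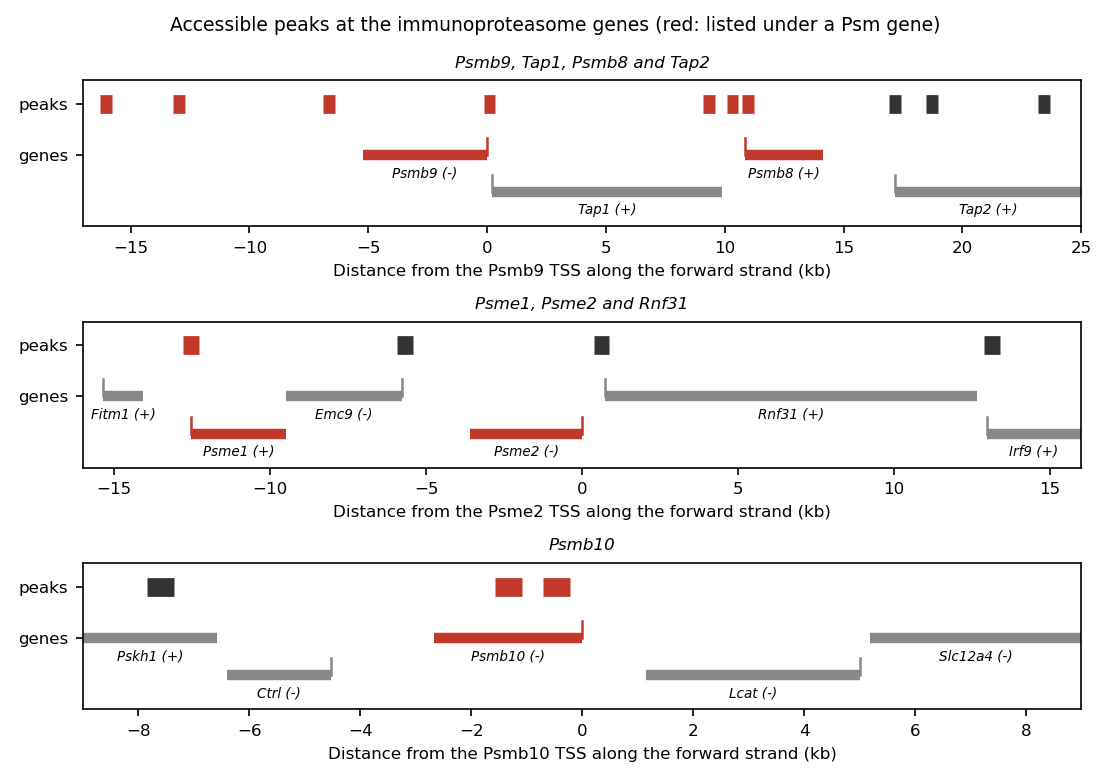
Maps of the 3 immunoproteasome loci to scale, with distance in kb from the TSS of Psmb9, Psme2 or Psmb10 on the x axis, genes as bars with a tick at the TSS, and peaks above them, red where listed under a Psm gene and black otherwise. The Psmb9 promoter peak lies between the starts of Psmb9 and Tap1, the peak closest to Psme2 lies at the start of Rnf31, and both Psmb10 peaks lie inside the gene.

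The interferon consensus was found in the peaks of the inducible genes at places that the promoter windows only partly covered. Of the 4 immunoproteasome genes with a promoter peak, 3 (75%) had an ISRE match within the peak, namely Psmb8, Psmb10 and Psme1, against 4.31% of the promoter peaks of the 10260 genes with both a peak and a RefSeq promoter and 3 of 25 (12.0%) for the constitutive structural genes (Psma4, Psmb3 and Psmd4). The matches are shown with 10 bases on each side, since the same letters recurred in them.
Psmb8, chr17:34198335-34198364, plus strand: gtactgtggcTTTCGCTTTCacttccttgt
Psmb10, chr8:105938109-105938138, minus strand: gggtgggggtGAAAGCGAAAgtaggaagcg
Psme1, chr14:55578493-55578522, plus strand: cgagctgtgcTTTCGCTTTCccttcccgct
The matches began 150 bases (Psmb8), 264 bases (Psmb10) and 9 bases (Psme1) after the TSS. All 3 read GAAAGCGAAA on one strand or the other. These exact letters, searched for after the sequences had been seen, occurred in 18 of the 10260 promoter peaks (0.175%), and in none of the other members searched. In the 300-base promoter windows, which end 50 bases into the gene, an ISRE match was present in 5 of 43 members (11.6%), against 3.43% of all windows and 3.00% of those of genes with a promoter peak. Only Psme1 among the 5 immunoproteasome genes was one of them. GAS matches were found in the peaks of Psmb8 and Psmb10 (50% of the 4), against 9.09% of all promoter peaks. Of the 25 constitutive structural genes, 2 (8.0%) also had one in the peak, Psmd2 and Psmb5, the counterpart of Psmb8. In the windows, GAS matches were present in 3 of 43 members (6.98%), against 7.80% of all windows.

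The ETS core was the consensus whose share of member windows lay farthest, in percentage points, from that of all genes. CCGGAAG was found in 16 of 43 promoter windows (37.2%), against 12.4% of all windows and 18.6% of the windows of genes with a promoter peak. It was present in 10 of 25 constitutive structural genes (40.0%) and in none of the 5 immunoproteasome windows. With only 5 windows, none is no clear departure from the 12.4% of all windows. In the whole promoter peak, read for the 40 members that had both the peak and a window, the shares were 42.5% of members and 23.8% of all genes. There it was present in 36.0% of the 25 constitutive structural genes and in 1 of the 4 immunoproteasome genes (25.0%), Psmb10. The shares of these groups thus lay closer together in the peaks than in the windows. The site closest to the TSS began within 50 bases of it in 12 of the 16 members (75%), against 61.9% of all windows that held the letters. A stretch from 40 bases before to 29 after the TSS is shown for 7 of these 12 genes from the core, base, lid, chaperones and activators, with CCGGAAG or its complement in capitals, to show how the sites sat around the start.
Psma6, chr12:55398785-55398854, plus strand: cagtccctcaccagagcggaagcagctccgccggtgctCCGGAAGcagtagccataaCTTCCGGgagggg
Psmc1, chr12:100110162-100110231, plus strand: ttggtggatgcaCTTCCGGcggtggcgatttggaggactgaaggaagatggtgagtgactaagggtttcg
Psmd11, chr11:80428575-80428644, plus strand: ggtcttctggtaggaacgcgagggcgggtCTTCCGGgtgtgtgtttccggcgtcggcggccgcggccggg
Psmd12, chr11:107479488-107479557, plus strand: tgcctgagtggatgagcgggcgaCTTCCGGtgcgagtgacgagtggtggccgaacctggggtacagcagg
Psmd13, chr7:140882354-140882423, plus strand: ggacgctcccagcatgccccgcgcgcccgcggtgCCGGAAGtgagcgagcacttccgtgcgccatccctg
Psmg3, chr5:139826865-139826934, minus strand: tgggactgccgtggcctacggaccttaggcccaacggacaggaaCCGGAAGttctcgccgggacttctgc
Psme3, chr11:101316173-101316242, plus strand: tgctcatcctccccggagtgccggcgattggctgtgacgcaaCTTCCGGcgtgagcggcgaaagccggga
Psma6 (alpha1) had a copy on each strand near the start, and Psmd13 (Rpn9) had its copy ending at the TSS, in sequence that the Sirt3-named peak did not cover.

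The ARE was found in 6 of 43 windows (14%), against 13.2% of all windows, so in the windows the share of members was close to that of other genes. The 6 were Psmb5, Psmb6, Psmc6, Psmd9, Psmd12 and Psme4, and none was an immunoproteasome gene, of which only 5 windows were searched. Both Psmb5 and Psmb6, the genes of the constitutive beta5 and beta1 sites, held it next to the TSS, the second of them 9 bases before it.
Psmb6, chr11:70525338-70525366, plus strand: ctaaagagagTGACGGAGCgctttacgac
In the whole promoter peak the ARE was found in 15 of 40 members (37.5%), against 23.4% of all promoter peaks. There it was present in 12 of the 25 constitutive structural genes (48.0%) and in none of the 4 immunoproteasome genes. With only 4 genes, none is no clear departure from the 23.4% of all promoter peaks. The consensus of nuclear respiratory factor 1 was found in 7 of 43 windows (16.3%), against 6.97% of all windows and 10.8% of those of genes with a promoter peak, and in 20% of the member peaks against 12.4% of all promoter peaks. The YY1 core ATGGCGG was found in 4 windows (9.3%, all windows 5.63%), and in 25.0% of the member peaks against 15.7%. CCAAT was found in 32.6% of member windows against 39.2% of all windows, and the GC box GGGCGG in 55.8% against 48.9%. For the GC box the order was the opposite in the promoter peaks, with 67.5% of members against 78.4% of all genes. The kappa-B consensus was found in 14% against 9.16%, and TATAAA in 9.3% against 13.2%. In all, 10 motifs were searched, on both strands, letters of different motifs were allowed to overlap, and a match is a match of letters and not a site shown to be bound.

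**Figure D3:**
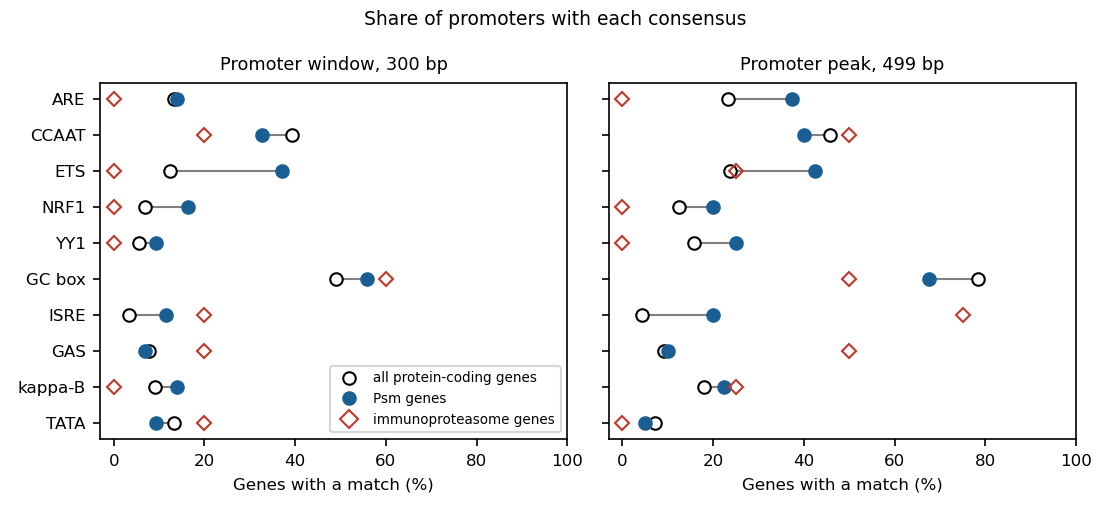
Share of genes in percent (x axis) with a match to each of 10 consensus sequences (y axis) in the 300-bp promoter window (left; 43 Psm genes, 5 of them immunoproteasome genes, and all 16853 genes) and in the 499-bp promoter peak (right; 40, 4 and 10260 genes). ETS is the row where the Psm genes lie farthest from all genes, in percentage points, in the left panel (37.2% against 12.4%), and ISRE the one where the immunoproteasome genes do so in the right panel (75% against 4.31%).

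Beyond the promoters, 105 of the 146 peaks lay more than 500 bp from the TSS that the list used, at 31 genes. By curated TSS 103 did, at 30 genes, since the Psmc1 and Psmc2 peaks described above then counted as promoter peaks. By the TSS of the list, the 31 genes were 60.8% of the 51, against 65.6% of all protein-coding genes with at least 1 such peak. The promoter share of the member peaks was 28.1%, and that of all peaks 15.6%. Genes of the family with any peak had a median of 2 peaks and a mean of 3.24, against 3 and 4.44 for the 16225 protein-coding genes with a peak, and 16 of 45 (35.6%) had a single peak, against 25.0%. By the TSS of the list, no non-promoter peak was present at 13 of the 31 constitutive structural genes. Psmc5 and Psmd13 had no row at all, and Psma4, Psma5, Psma7, Psmb2, Psmb5, Psmb6, Psmc4, Psmd2, Psmd3, Psmd8 and Psmd11 had a promoter peak only.

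The non-promoter peaks were concentrated at few genes. The 5 genes with the most peaks, Psma6 (10 peaks), Psmc1 (10), Psma1 (9), Psmd7 (9) and Psme4 (7), held 45 of the 146 peaks and 41 of the 105 non-promoter ones. Psma6, the alpha1 gene, had 3 peaks in introns of its upstream neighbour Prorp, 2 in its own intron and 4 in the intergenic sequence 23447 to 44570 bp downstream. Psma1, the alpha6 gene, had 5 intergenic peaks upstream and 3 in introns of 4933406I18Rik, up to 50896 bp from its TSS. At Psmc1 the peaks reached into Kcnk13 and Nrde2. Psmd7, the gene of the lid subunit Rpn8, had the most distant peaks of the family, 3 intergenic ones between 392219 and 480459 bp upstream, and these were the only member peaks more than 100 kb away. Psme4, the gene of the activator PA200, differed from these in that 5 of its 6 non-promoter peaks lay in its own introns, from 531 to 33488 bp downstream of the TSS. Psmf1, the gene of the inhibitor PI31, had 6 peaks, 5 of them within 10 kb of its TSS. Each of the 7 assembly chaperone genes had a non-promoter peak, against 65.6% of all genes, with 20 such peaks in all and a median of 3 peaks per gene, equal to that of all genes with a peak.

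Of the 105 non-promoter peaks, 61 (58.1%) were intergenic and 34 (32.4%) in introns, against 44.6% and 48.0% of all non-promoter peaks. Their median distance from the TSS was 16480 bp, against 22261 bp. Within 10 kb lay 33 of them, a count with no share over all non-promoter peaks beside it here. Of the 44 that were annotated to a transcript, 24 were annotated to the gene whose name they carried and 20 to another gene. For these 20, as for the 61 intergenic peaks, the name gives the nearest TSS only. Among the 24 were 3 of the promoter class that lay upstream of the gene, at Psmb3 (-845 bp), Psmb8 (-540 bp) and Psmf1 (-976 bp). The split of the 44 likewise has no counterpart over all peaks here. A repeat element was annotated at 30 of the 105 non-promoter peaks (28.6%), against 17.9% of all non-promoter peaks.

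**Figure D4:**
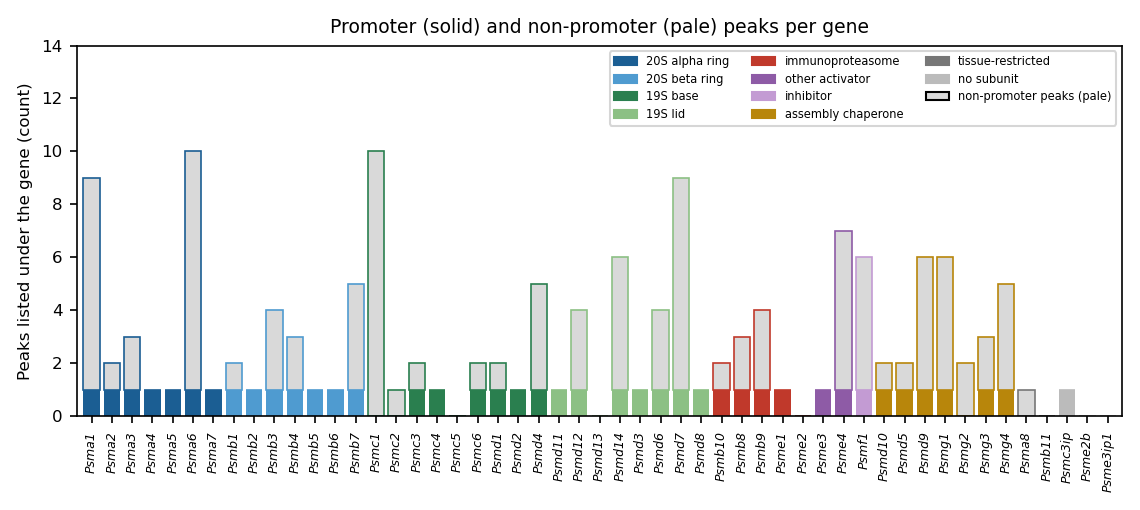
Number of peaks listed under each of the 51 genes (y axis), with solid bars for promoter peaks and pale bars for non-promoter peaks, coloured by role. Psma6 and Psmc1 have 10 peaks each, all promoter bars have a height of 1, and genes without a bar are those whose peaks, where present, are listed under other names.

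The tissue-restricted subunits were the exception within the core. Psma8, the alpha4-like subunit of the testis, had 1 intronic peak 7675 bp downstream of its TSS and no promoter peak. Psmb11, the beta5t subunit of thymic cortical epithelium, which the sorted thymic T cells are not, had no row, and the nearest peak was the promoter peak of Psmb5, centred 7301 bp upstream of the Psmb11 TSS. Psme2b had no row either, and its nearest peak lay 18194 bp downstream.

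The partners of the proteasome had promoter peaks in every case examined. These were 18 genes for shuttle factors, ubiquitin receptors, deubiquitinases and regulators, among them Adrm1, Uchl5, Usp14, Pomp, which helps to assemble the core, and Nfe2l1 with its activating protease Ddi2. All 18 had one by name and by RefSeq TSS, with a median of 4 peaks per gene, where 54.8% and 60.3% of all genes had one and the median over genes with a peak was 3. Among the 18, Ecpas was counted by name although its peak carried another name for it, AI314180. Of 6 genes of antigen processing (Tap1, Tap2, Tapbp, Erap1, B2m and Irf1), all 6 had one by RefSeq TSS and 5 by name, the exception being Tap1, whose peak was listed under Psmb9. Irf1, which encodes an ISRE-binding factor, had 7 peaks, and Tap2 had 4, the nearest centred 1 bp upstream of its TSS (-1 bp).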

How the data were processed

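ATAC-seq was performed on 12 samples, 2 from each of 6 sorted mouse cell types. Reads were mapped to mm10 by the authors, who left multimapping reads out, called peaks with the ENCODE pipeline, took the optimal peaks of each cell type from the reproducibility analysis, concatenated the lists, kept non-overlapping peaks with chromVAR and annotated them with HOMER (version 4.10.2 per the labels). The result is 1 pooled list. Start, end and distance to the TSS were used as deposited, in bp. A score column, also deposited by the authors, was 0 for each of the 84243 peaks and served no purpose here. The list holds no counts, so depth per sample is unknown, and no test, error or cell type comparison was possible.

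Peaks were assigned by the gene name in the list and, separately, by distance of the peak centre to curated RefSeq transcripts of GRCm38.p6 (21000 protein-coding genes). By name, all genes and the partners were matched through the gene identifier, so a renamed gene counted, whereas members needed their current name. RefSeq promoter windows (250 bases before and 50 from the TSS) were present for 43 of 51 members. Psma8, Psmb1, Psmb2, Psmb7, Psmc3, Psmd3, Psmd7 and Psmg2 were not searched. One window per gene was used, at the RefSeq Select TSS for all 43 members. Consensus letters were searched on both strands in Python 3.11.15 (pandas 2.3.3, pysam 0.24.0), and the search and the nearest-peak count were tested on simulated data. Paaf1, in the list of partners, was not analysed here, and 1 gene of the antigen processing list is not reported here.

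Genes described in full were the immunoproteasome genes and their counterparts Psmb5, Psmb6, Psmb7 and Psme3, members without a promoter peak by name, Psma8 and Psmb11, the 5 members with the most peaks, and members whose TSS lay in a peak of another name. Other genes are given as examples chosen after their values were seen. Members and gene lists were chosen with earlier results of these data known. Alternatives concerned the promoter distance, the assignment, the genes counted and the search window.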

Additional observations from a re-analysis of the deposited data

How the results depend on the processing

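Of 33 alternatives, 19 left the value within 1.5 times of the one reported. The number of members with a promoter peak was 41 by name, 33 within 100 bp, 41 within 1000 bp, 47 by RefSeq TSS and 30 when only structural subunits were counted. Those structural subunits are not the same set as the 31 constitutive structural genes above, of which 27 had one by name. The other 14 moved further. The share of immunoproteasome genes with a promoter peak minus that of constitutive structural genes was -7.1 percentage points by name, 0 for the catalytic pairs and -20 by RefSeq TSS. Of all protein-coding genes, 35.6% had a promoter peak by name within 100 bp, against 54.8% within 500 bp. Of the 146 member peaks, 74 lay within 10 kb of the TSS, since fewer peaks are admitted. With the whole promoter peak in place of the promoter window, the share of members was 37.5% for ARE (from 14%), 25.0% for YY1 (from 9.3%), 20% for ISRE (from 11.6%), 22.5% for kappa-B (from 14%) and 5.0% for TATAAA (from 9.3%). Over all genes the shares in the peaks were 23.4% for ARE, 15.7% for YY1, 4.31% for ISRE, 18.1% for kappa-B and 7.26% for TATAAA. With the window shortened to 100 bases before the TSS the share of members was 9.3% for ARE, 6.98% for ISRE, 4.65% for GAS (from 6.98%), 6.98% for kappa-B and 2.33% for TATAAA. In the shortened windows of all genes they were 8.05% for ARE, 1.34% for ISRE, 3.48% for GAS, 4.71% for kappa-B and 7.17% for TATAAA. The lengths searched differ between these windows. No paired analysis was possible because the list is pooled over samples, so no replicate could be left out and no stricter score could be set.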
